A study of Mus musculus with 6 samples.

Results

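The MYC and MAX network is a set of transcription factors with a basic helix-loop-helix and leucine zipper fold, and the genes described here are Myc, Mycn, Mycl, Max, Mxi1, Mxd1, Mxd3, Mxd4, Mnt and Mlx. They were chosen by symbol as a gene family, not by a threshold on their values, and make up 10 of the 24421 gene rows of the deposited count table. All 10 passed the filter on low counts and were tested. LK cells are the lineage-negative fraction of marrow that carries the stem cell factor receptor c-Kit, and here they came from C57BL/6 mice. This gate holds stem cells together with myeloid, erythroid and megakaryocyte progenitors. One group of 3 libraries came from wild type mice and the other group of 3 from littermates with a knocked-in mutant form of the chromatin regulator ASXL1, labelled ASXL1-MT-KI. Animals of both groups were 8 to 12 weeks old, and neither group is labelled with a further allele or treatment. The promoter that drives the allele, the cells in which it is active and the number of animals behind a library are not given in the labels, which do call the 3 experiments of a group independent.

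MYC proteins activate growth genes only as heterodimers with MAX, bound to E-box sequences in DNA. MXD proteins and MNT compete with MYC for MAX and for the same sites, and recruit SIN3 and histone deacetylases to repress transcription. MLX is a MAX-like partner for MONDO proteins that respond to glucose, and it also binds MNT and some MXD proteins. In blood formation Myc is required for the proliferation of progenitors and for the exit of stem cells from the niche, while Mxd1 is known to accumulate as granulocytes mature.

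Mnt and Mxd1 were the members that changed between genotypes, and their promoters are shown for that reason. RefSeq windows of GRCm38.p6 reach from 250 bases before to 50 bases after the transcription start, and the bases before the start are printed. Capitals mark matches to the canonical E-box CACGTG, which reads the same on both strands, and to CCAAT, searched also as its reverse complement ATTGG. The CCAAT search was chosen after the sequences had been seen. The printed Mnt stretch lies at chr11:74830674-74830923 on the plus strand and the Mxd1 stretch at chr6:86669160-86669409 on the minus strand.
Mnt: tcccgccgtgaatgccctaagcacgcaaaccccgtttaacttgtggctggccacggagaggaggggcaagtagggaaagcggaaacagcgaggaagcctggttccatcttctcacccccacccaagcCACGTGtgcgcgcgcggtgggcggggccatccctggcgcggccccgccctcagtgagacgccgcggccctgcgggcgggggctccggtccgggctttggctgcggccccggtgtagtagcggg
Mxd1: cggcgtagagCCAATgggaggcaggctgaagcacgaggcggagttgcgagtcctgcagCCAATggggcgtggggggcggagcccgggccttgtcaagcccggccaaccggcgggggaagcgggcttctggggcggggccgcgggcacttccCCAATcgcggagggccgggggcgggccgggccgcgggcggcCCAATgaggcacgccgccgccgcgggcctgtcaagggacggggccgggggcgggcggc
The Mnt window held 1 E-box and no CCAAT, and the Mxd1 window held no E-box and 4 CCAAT matches. Among all 32851 windows of this length, 7.15% held an E-box, 37.4% held at least 1 CCAAT and 1.06% held 4 or more. Among the 12911 windows of tested genes these shares were 9.81%, 37.5% and 1.73%. The cut at 4 is the count of the Mxd1 window itself.

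E-boxes were also found in the windows of 3 members that did not pass the test, and the sites are set beside that of Mnt to show them. Windows were given for 9 of the 10 members, and Myc had no entry. The 30 bases around each site are as follows.
Max, minus strand, chr12:76962234-76962263: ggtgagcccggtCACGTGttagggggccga
Mlx, plus strand, chr11:101087238-101087267: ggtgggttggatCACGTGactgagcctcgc
Mxd4, minus strand, chr5:34187912-34187941: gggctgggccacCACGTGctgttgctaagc
Mnt, plus strand, chr11:74830789-74830818: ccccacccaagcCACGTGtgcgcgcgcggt
Counted from the start site, the first base of the E-box lay at -3 in Max, -40 in Mlx, -123 in Mnt and -219 in Mxd4. Thus 4 of 9 members (44.4%) held a CACGTG, against 11.6% of the 10185 tested genes with a window. A match of letters does not show that a factor binds there, and the 4 genes differed in their response to genotype.

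The libraries held 40462168 to 47579480 counts. Asxl1 was 1.88-fold higher in ASXL1-MT-KI (log2 fold change 0.91, adjusted p = 9.7e-06 by edgeR's quasi-likelihood test with Benjamini-Hochberg adjustment), on counts that do not separate the knock-in from the endogenous gene. All 8 progenitor markers, among them Kit and Mpo, were expressed. Of these 1 rose and 2 fell, where 16% of all tested genes passed. In CPM (counts scaled to a common library size by TMM factors), Flt3 was at 119.9, 114.3 and 137.4 in wild type and 74.1, 83.9 and 79.3 in ASXL1-MT-KI. Cd34 was at 360.9, 363.9 and 400.7 CPM against 295.7, 303.7 and 308.7 CPM. Myb was at 824.2, 834.5 and 867.5 CPM against 983.9, 932.6 and 987.9 CPM. For Kit, Mpo, Gata2, Gata1 and Cebpa the groups overlapped. Markers of mature neutrophils summed to 4.89 to 12.7 CPM in wild type and 7.17 to 13.4 CPM in ASXL1-MT-KI. Of the B cell list 6 genes were tested, of which 3 fell and none rose. Ms4a1 and Pax5 stayed under 1 CPM in every library, while Cd79b was at 16.2 to 18.9 CPM in wild type and 19.0 to 21.1 CPM in ASXL1-MT-KI. Of the T and NK cell list 4 genes were tested and none passed. Cd3e, Cd3d and Cd8a stayed under 1 CPM, while Nkg7 was at 163.4 to 179.0 CPM and 143.7 to 190.1 CPM. Red cell markers summed to 391.5 to 553.4 CPM in wild type and 550.1 to 633.2 CPM in ASXL1-MT-KI. The stroma and endothelium list summed to 130.7 to 153.5 CPM and 116.9 to 124.2 CPM, with Col3a1 at 0 throughout. The part of these shifts in the results below was not tested, and in bulk samples fewer cells of a type and less RNA per cell cannot be told apart.

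Myc was the most abundant transcript of the network in wild type LK cells. Its level per length was 70.8 ± 3.15 CPM per kb of exonic length (SD, n = 3), above that of 95.1% of the 13018 tested genes with a known length. Max followed at 29.4 ± 1.46, then Mlx at 24.9 ± 0.721 and Mnt at 23.7 ± 1.07 CPM per kb. Mlx and Mnt overlapped in wild type, at 24.1 to 25.4 and 22.8 to 24.9 CPM per kb, so their order is not resolved. Mxi1 at 10.8 ± 0.835 and Mxd1 at 9.70 ± 0.702 CPM per kb also overlapped, and they changed places when the longest annotated transcript was used as the length. Mxd4 stood at 3.6 ± 0.415, Mxd3 at 1.99 ± 0.083 and Mycn at 1.63 ± 0.153 CPM per kb. Mycl was lowest, at 0.323 ± 0.077 CPM per kb. Neighbours other than the 2 overlapping pairs did not overlap between wild type libraries. The annotation behind the counts is not given in the sources used here, so levels per length rest on GENCODE M21 exons. With the longest transcript as the length, Myc stayed first at 82.3 ± 3.66 CPM per kb and Max second at 54.5 ± 2.71, a higher Max level by over 1.5 times. Mxd1 was then at 14.7 ± 1.06, Mxd4 at 7.88 ± 0.910 and Mxd3 at 3.55 ± 0.148 CPM per kb, also over 1.5 times their levels on all exons.

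**Figure D1:**
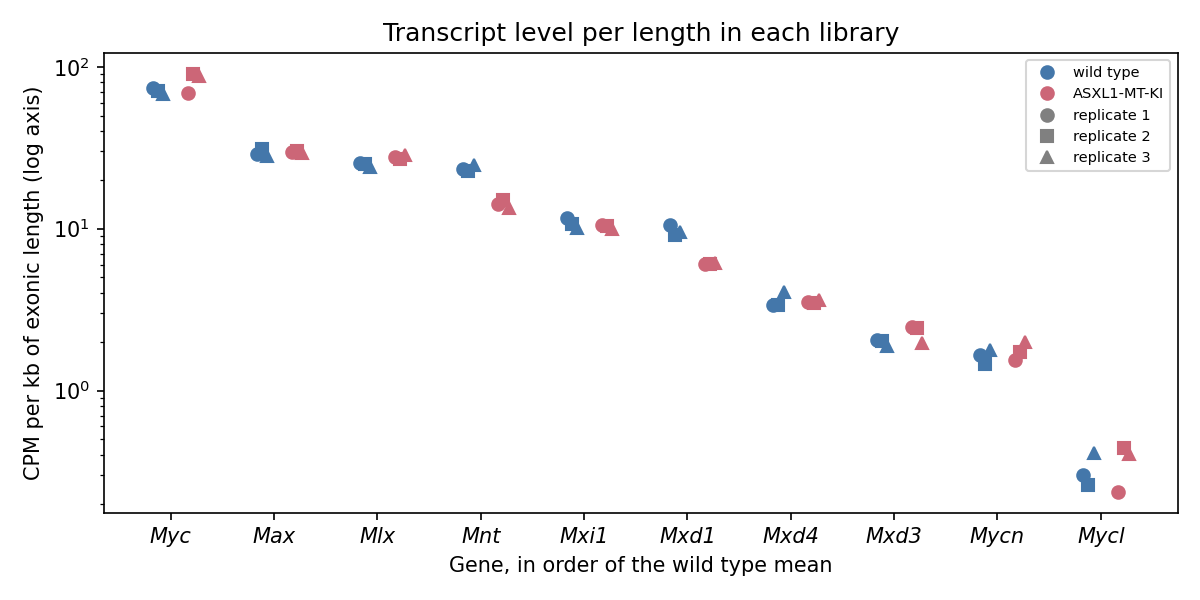
Level of each network transcript in CPM per kb of exonic length (log axis), 1 point per library, with genes in order of their wild type mean. Myc lies above all other members in every library, Mlx and Mnt meet in wild type, and the Mnt and Mxd1 points of ASXL1-MT-KI sit below those of wild type.

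In the comparison of genotypes, which asks how mutant ASXL1 alters expression in progenitors, 2 of the 10 members fell and none rose. Both that fell, Mnt and Mxd1, encode antagonists of MYC, as do Mxi1, Mxd3 and Mxd4, which did not pass. Across all 13548 tested genes 16% passed at an adjusted p under 0.05, with 8.29% rising and 7.69% falling, beside 20% of the members. With the replicate number as a block 1 member, Mlx, rose and 2 fell, 30% beside 30.5% of all genes. The median log2 fold change of the members was 0.06, against 0.00 over all tested genes, and -0.01 without ASXL1-MT-KI replicate 2. No member rose in DESeq2 or limma-voom either, where 8.44% of genes rose in each, and 1 member, Mlx, was higher at an unadjusted p under 0.05, which 30.4% of all genes reached (16.2% higher, 14.2% lower). Values without overlap between genotypes were seen in 3 members (Mnt, Mxd1 and Mlx), beside 35.2% of all tested genes (18% higher, 17.2% lower).

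**Figure D2:**
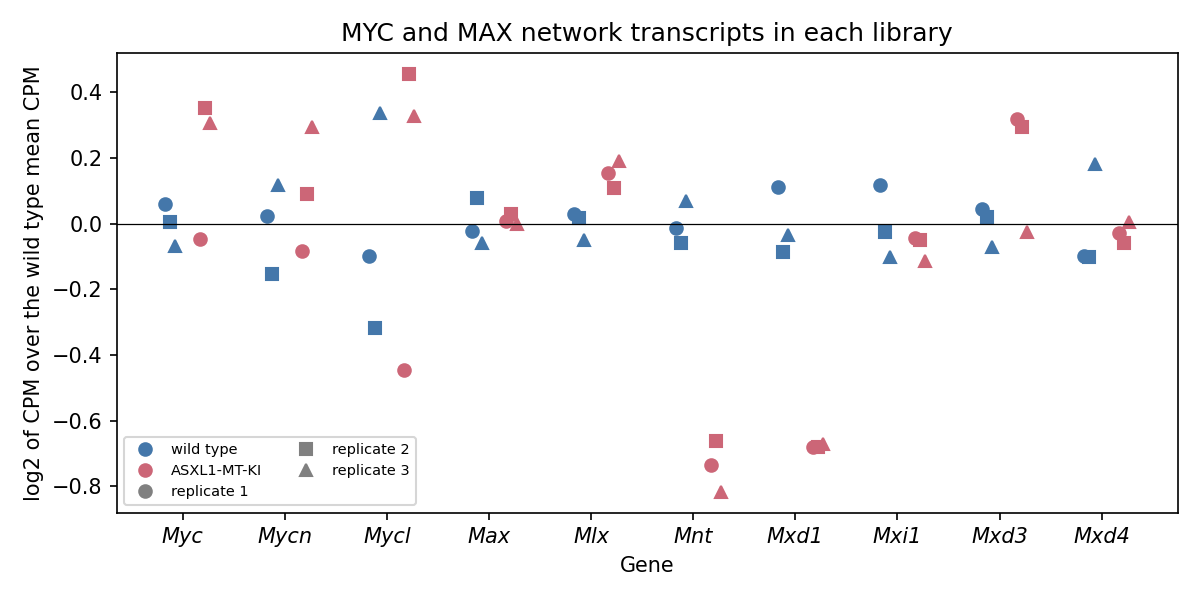
Change of each network transcript in each library, as the log2 of its CPM over the wild type mean CPM; colours give the genotype and symbols the replicate number. Mnt and Mxd1 lie well below 0 in all 3 ASXL1-MT-KI libraries, while Myc is above the wild type range in replicates 2 and 3 but not in replicate 1.

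Mnt encodes the broadly expressed MAX partner that antagonises MYC in proliferating as well as resting cells. It lies on chromosome 11, from 74830920 to 74845725 on the plus strand in GRCm38, the assembly of mm10. Its counts were 4990, 4830 and 4672 in wild type, against 3166, 3135 and 2585 in ASXL1-MT-KI. After scaling these were 108.7, 105.3 and 115.1 CPM in wild type and 66.0, 69.3 and 62.3 CPM in ASXL1-MT-KI, so every ASXL1-MT-KI library was below every wild type library. Mnt fell to 0.601 of the wild type level (log2 fold change -0.74 ± 0.058, SE; adjusted p = 9.7e-05, edgeR). By p it ranked 42 among the 13548 tested genes, and 3.32% of them had a lower fold change.

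Mxd1, also called Mad1, encodes the MXD protein linked to terminal differentiation of myeloid cells. It lies on chromosome 6, from 86647042 to 86669161 on the minus strand. Its counts were 3404, 2963 and 2720 in wild type and 2056, 1934 and 1788 in ASXL1-MT-KI. The scaled values were 74.2, 64.6 and 67.0 CPM against 42.8, 42.8 and 43.1 CPM, with the 3 ASXL1-MT-KI libraries almost level. Mxd1 fell to 0.625 of wild type (log2 fold change -0.68 ± 0.061, SE; adjusted p = 0.000202, edgeR), which is rank 67 by p. Mature neutrophil markers, given above, overlapped between the genotypes, with sums of at most 13.4 CPM in any library. Sums this low say little of maturation in these cells, and its part in the fall of Mxd1 was not tested. Both falls passed under all 14 alternatives, with log2 fold changes of -0.78 to -0.66 for Mnt and -0.72 to -0.62 for Mxd1. The share of all genes that fell was 13.8% in the blocked fit, 7.9% with DESeq2 size factors, 5.66% with total counts, 7.91% in DESeq2, 7.76% in limma-voom, 5.95% with no filter and 8.09% with the CPM filter. It was 4.34%, 6.69% and 7.61% without wild type replicates 1, 2 and 3, and 5.23%, 4.26% and 6.43% without those of ASXL1-MT-KI. With the number 3 libraries of both groups left out it was 8.21%.

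The other MXD genes gave no call. Mxi1 encodes MXI1 (MXD2), which like MXD1 recruits SIN3 through an amino-terminal domain. It was at 79.9, 72.5 and 68.7 CPM in wild type and 71.5, 71.2 and 68.1 CPM in ASXL1-MT-KI, and the groups overlapped (log2 fold change -0.07, 95% interval -0.21 to 0.07, adjusted p = 0.502). Mxd4 was at 28.5, 28.5 and 34.6 CPM against 29.9, 29.3 and 30.6 CPM (log2 fold change -0.03, interval -0.22 to 0.16, adjusted p = 0.872). Wild type replicate 3 alone lay above the other libraries for Mxd4. Mxd3, an MXD gene expressed in cycling cells, was at 4.86, 4.78 and 4.48 CPM against 5.88, 5.77 and 4.63 CPM (log2 fold change 0.21, interval -0.09 to 0.50, adjusted p = 0.327). ASXL1-MT-KI replicate 3 fell within the wild type range. The exons of Mxd3 share 105 bases with the oppositely oriented gene Prelid1, whose level was similar in the groups, at 172.6 ± 8.43 and 169.9 ± 1.55 CPM, and Mxd4 exons share 514 bases with an antisense gene that is not a row of the table. Mxi1 exons share 194 bases with the oppositely oriented Gm10197, also no row of it. Libraries of this kit do not mark strand, so reads in these shared stretches cannot be assigned.

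Taken per length, Mxd1 made up 37.2% ± 0.818 of the summed MXD transcripts in wild type and 27.4% ± 0.701 in ASXL1-MT-KI. The share of Mxi1 was 41.4% ± 1.66 and 46.4% ± 0.257. That of Mxd3 was 7.62% ± 0.345 and 10.3% ± 1.11, and that of Mxd4 13.8% ± 1.95 and 15.9% ± 0.668 (SD, n = 3 each). Shares sum to a fixed total, so a lower share of Mxd1 raises the others by construction.

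Myc, on chromosome 15 from 61985391 to 61990374, encodes the main MYC protein of haematopoietic cells. The counts were 9211, 8846 and 7451 in wild type and 8935, 11099 and 9868 in ASXL1-MT-KI. In CPM these were 200.7, 192.9 and 183.6 against 186.2, 245.5 and 237.9. ASXL1-MT-KI replicates 2 and 3 lay above all wild type libraries and replicate 1 within their range. The difference did not pass (log2 fold change 0.21 ± 0.099, SE; 95% interval -0.01 to 0.44; adjusted p = 0.186, edgeR). Without ASXL1-MT-KI replicate 1, Myc passed, with a log2 fold change of 0.32 and an adjusted p of 0.0111, where 4.92% of genes rose. With the number 3 libraries of both groups left out it was 0.13 (adjusted p = 0.631, where 9.61% of genes rose).

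Mycn and Mycl, the paralogs known from neural tumours and lung cancer, were weakly expressed. Mycn was at 5.47, 4.84 and 5.84 CPM in wild type and 5.08, 5.73 and 6.60 CPM in ASXL1-MT-KI (log2 fold change 0.11, interval -0.20 to 0.41, adjusted p = 0.642). Mycl had 56, 48 and 67 counts against 46, 81 and 68, or 1.22, 1.05 and 1.65 CPM against 0.959, 1.79 and 1.64 CPM (log2 fold change 0.16, interval -0.46 to 0.79, adjusted p = 0.743). The groups overlapped for both genes, and the interval of Mycl is wide at these counts. Per length, Myc supplied 97.3% ± 0.387 of the MYC family transcripts in wild type and 97.5% ± 0.161 in ASXL1-MT-KI.

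Max, which encodes the obligate partner of MYC proteins and a partner of MXD proteins and MNT, lies on chromosome 12 from 76937269 to 76962201. It was at 104.2, 111.7 and 101.6 CPM in wild type and 106.5, 108.0 and 105.9 CPM in ASXL1-MT-KI, all within the wild type range. Its log2 fold change was 0.01, with a 95% interval of -0.10 to 0.13 (adjusted p = 0.902, edgeR). Mlx, on chromosome 11 from 101087277 to 101092207, was at 50.8, 50.4 and 48.1 CPM in wild type and 55.5, 53.6 and 56.9 CPM in ASXL1-MT-KI. The Mlx groups did not overlap, but the difference of 0.15 ± 0.052 (log2 fold change, SE) did not pass (adjusted p = 0.0815). With the replicate number as a block it passed (adjusted p = 0.0347, where 16.7% of genes rose), and with total counts in place of the scaling factors too (adjusted p = 0.0238, where 11.5% rose). The exons of Mlx share 385 bases with Psmc3ip on the opposite strand, whose own level went from 20.2 ± 0.893 to 22.8 ± 0.976 CPM without passing (adjusted p = 0.127), and the reads of that stretch cannot be told apart.

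**Figure D3:**
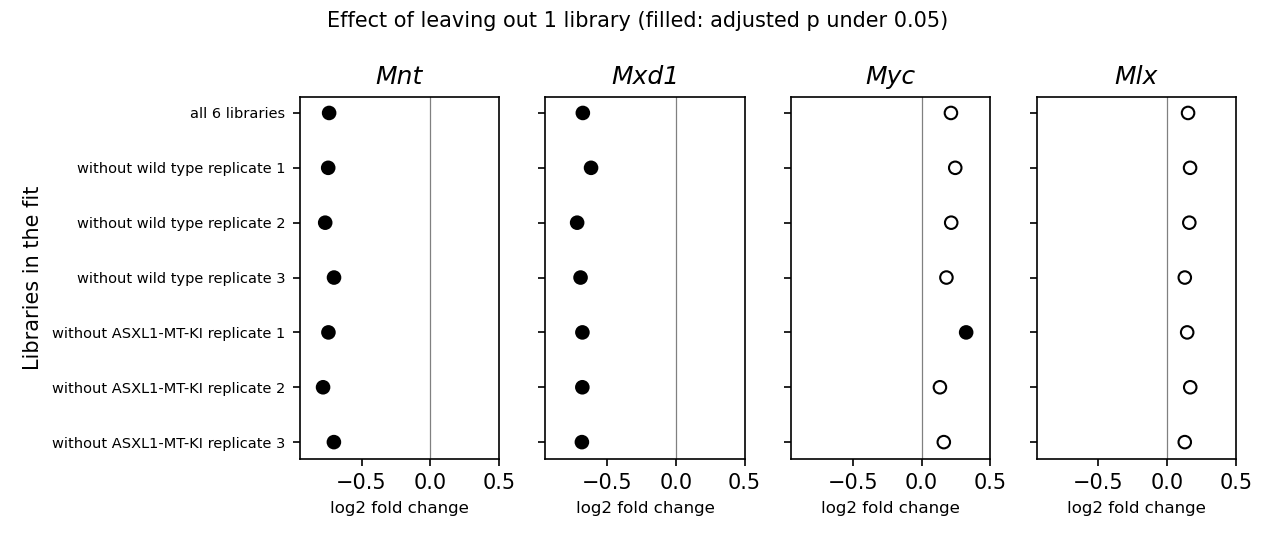
Log2 fold change (ASXL1-MT-KI over wild type) of Mnt, Mxd1, Myc and Mlx with all 6 libraries and with each library left out in turn; filled points have an adjusted p under 0.05. Mnt and Mxd1 stay filled and negative in every row, Myc is filled at 0.32 without ASXL1-MT-KI replicate 1, and Mlx is open in each row.

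The Myc transcript was set against Mnt, against Mxd1, and against the sum of Mnt and the MXD genes. For these denominators no ASXL1-MT-KI ratio was as low as any wild type ratio. Mnt and Mxd1 are the members that fell, and the sum contains both, so the separation is not independent of those falls. Myc itself was at 186.2 CPM in ASXL1-MT-KI replicate 1, within the wild type range of 183.6 to 200.7 CPM. Mxi1, Mxd3 and Mxd4, which did not pass, were not set against Myc singly. The ratio of Myc to Mnt in CPM per kb was 3.14, 3.12 and 2.72 in wild type and 4.81, 6.03 and 6.50 in ASXL1-MT-KI. The ratio of Myc to Mxd1 was 7.04, 7.77 and 7.13 against 11.3, 14.9 and 14.4. Over the sum of Mnt and the MXD genes it was 1.45, 1.48 and 1.34 against 1.86, 2.42 and 2.49. These ratios combine members whose values are given above and are descriptions without a test. They also concern transcripts, not proteins. With the longest transcript as the length, the last ratio was 1.27 ± 0.065 and 1.94 ± 0.297. The summed partners (MYC family, MXD genes and Mnt) over Max overlapped between genotypes, at 4.17 ± 0.258 and 4.07 ± 0.389, or 2.74 ± 0.173 and 2.68 ± 0.242 with the longest transcript.

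**Figure D4:**
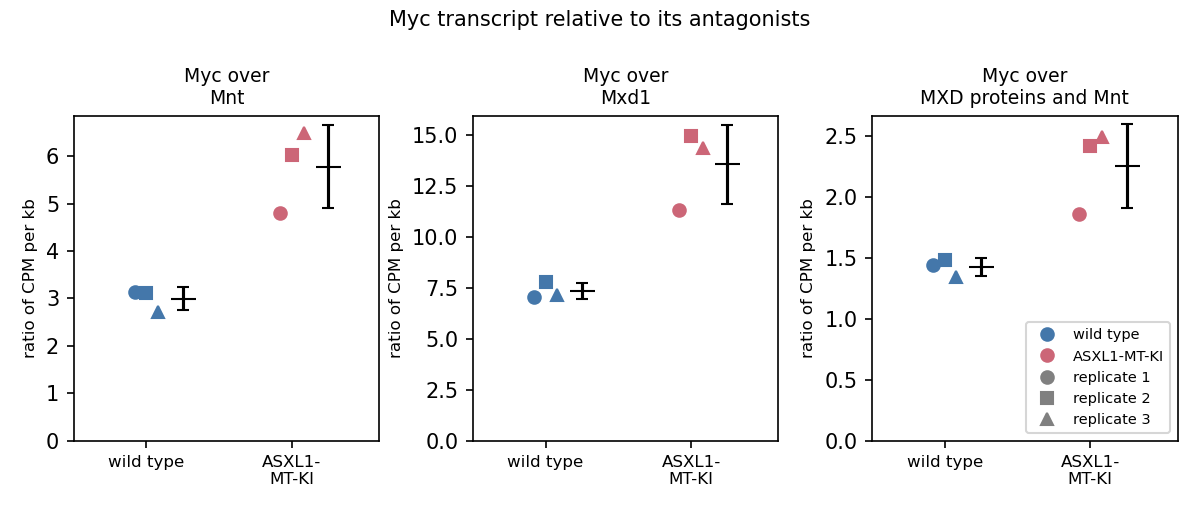
Ratio of Myc to Mnt, to Mxd1, and to the sum of Mnt and the 4 MXD genes, each in CPM per kb, with 1 point per library and the mean ± SD of 3 beside them. The wild type points lie below the ASXL1-MT-KI points in each panel, and ASXL1-MT-KI replicate 1 is the lowest of its group.

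By a rule on likeness over the 6 libraries, the genes closest to Myc were Rpp14, Cnot4 and Gbp7. Likeness was the root mean square difference in log2 CPM after subtraction of each gene's wild type mean, over 9013 genes with a mean of at least 10 CPM. It was 0.065 for Rpp14, a subunit of ribonuclease P, 0.071 for Cnot4, a ubiquitin ligase of the CCR4-NOT complex, and 0.072 for Gbp7, an interferon-inducible GTPase. All 3 shared the low value of ASXL1-MT-KI replicate 1 relative to replicates 2 and 3, which follows from the rule that chose them. None passed (adjusted p = 0.105, 0.0726 and 0.0535, edgeR). The measure shares libraries and their depth with Myc and says nothing of function.

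Among other factors that bind E-boxes or pair with MAX and MLX there was 1 call. Of 12 genes, 1 fell and none rose in edgeR, DESeq2 or limma-voom (none rose at an unadjusted p under 0.05), which is 8.33% called beside 16% of all genes. The median was -0.01, against 0.00 over all genes, and 0.04 with total counts. The gene that fell was Srebf2, the regulator of cholesterol synthesis, at 196.8, 189.1 and 217.0 CPM in wild type and 173.2, 146.4 and 170.0 CPM in ASXL1-MT-KI (log2 fold change -0.30, adjusted p = 0.0266). That call was lost without wild type replicate 1 (adjusted p = 0.0765), without ASXL1-MT-KI replicate 2 (0.0727) and under total-count scaling (0.0627). With the block 3 of the 12 fell, 25% beside 30.5% of all genes in either direction.

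Of 15 genes of the SIN3 and histone deacetylase corepressor, which MXD proteins and MNT recruit, none passed in edgeR, DESeq2 or limma-voom, beside 16% of all genes, and 3 (20%) were lower at an unadjusted p under 0.05, beside 14.2%. The median was -0.05, or 0.00 with total counts. The lowest p was that of Arid4b, a SIN3-associated chromatin protein, at 76.8, 68.0 and 65.7 CPM against 61.9, 61.9 and 61.1 CPM (log2 fold change -0.19, adjusted p = 0.079, and 0.0121 with the block). With the block 3 fell, where 13.8% of all genes did. Also 3 fell without wild type replicate 3, beside 7.61% of all genes, and 3 with the number 3 libraries of both groups left out, beside 8.21%.

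In the list of MYC cofactors 5 of 16 genes fell (31.2%, beside 16% of all genes) and none rose in edgeR, DESeq2 or limma-voom (none rose at an unadjusted p under 0.05). The median was -0.10, and -0.04 with total counts. Ccnt1, the cyclin of the elongation kinase P-TEFb, went from 60.2, 55.6 and 61.4 CPM to 43.0, 42.4 and 43.8 CPM (log2 fold change -0.46, adjusted p = 0.000949). Crebbp, a histone acetyltransferase, fell by 0.36 on the log2 scale, from 118.3 ± 6.21 to 92.4 ± 4.15 CPM. Paf1 fell by 0.22, and that call was lost without wild type replicate 1, ASXL1-MT-KI replicate 1 or ASXL1-MT-KI replicate 2 (adjusted p up to 0.0659). Zbtb17, which encodes the MYC partner MIZ1 and is named after its values were seen, fell by 0.23, a call lost when any library but ASXL1-MT-KI replicate 1 was left out (adjusted p up to 0.107) and also under total-count scaling or with number 3 of both groups left out. The falls numbered 3 when either wild type replicate 1 was left out or ASXL1-MT-KI replicate 2 was.

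Of 22 genes that control the stability of the MYC protein, 5 fell and 1 rose, 27.3% in all beside 16% of all tested genes, with a median of -0.06, or -0.01 with total counts. Fbxw7, the ubiquitin ligase subunit that targets phosphorylated MYC for degradation, went from 27.9, 29.2 and 30.3 CPM to 22.9, 21.9 and 23.2 CPM (log2 fold change -0.36, adjusted p = 0.00575). Gsk3b, a kinase that marks MYC for FBXW7, fell by 0.25, from 110.5 ± 0.953 to 92.8 ± 2.46 CPM. The deubiquitinase genes Usp22 and Usp36 fell by 0.40 and 0.25; USP36 is known to protect MYC. The genes that fell include genes of opposite roles toward MYC. The remaining calls, named after their values were seen, were Axin1 and Skp2. Axin1 fell by 0.20, a call lost when any library but wild type replicate 3 was left out (adjusted p up to 0.143) and with total counts. Skp2, a ubiquitin ligase subunit of the cell cycle, rose from 19.7, 21.2 and 21.0 CPM to 24.8, 26.1 and 31.8 CPM (log2 fold change 0.42, adjusted p = 0.0182; 0.0850 without wild type replicate 1). With the block 3 rose and 8 fell, 50% beside 30.5% of all genes.

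Genes of ribosome biogenesis, nucleotide supply and growth that are commonly used as MYC targets gave few calls. Of 66 tested, 1 rose and 1 fell, 3.03% beside 16% of all tested genes. Their log2 fold changes ran from -0.31 to 0.38 with a median of -0.05, or 0.00 with total counts. Ldha, a lactate dehydrogenase subunit, was at 776.4, 772.6 and 727.0 CPM in wild type and 677.8, 649.5 and 677.6 CPM in ASXL1-MT-KI (log2 fold change -0.18, adjusted p = 0.0277). The nucleoside transporter gene Slc29a2 was at 6.93, 6.46 and 7.22 CPM against 8.94, 9.62 and 8.27 CPM (log2 fold change 0.38, adjusted p = 0.0348). Neither call held with most libraries left out in turn, while the log2 fold changes ran from -0.22 to -0.13 for Ldha and from 0.32 to 0.47 for Slc29a2 over all alternatives. The Ldha call was lost when any library but wild type replicate 3 was left out (adjusted p up to 0.134) and with total counts, and Slc29a2 when any of the number 1 and number 2 libraries was left out (up to 0.145). With the block 3 rose and 7 fell, 15.2% beside 30.5%, and 2 rose and 8 fell when the number 3 libraries were left out. In the promoter windows of this list, CACGTG was held by 26.7% of 60 genes, beside 11.6% of the 10185 tested genes with a window. The share was 37.5% of 8 genes known to be repressed by MYC and 33.3% of 3 targets of MLX heterodimers. In the other lists associated with the network it ran from 6.67% to 11.1%.

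Genes known to be repressed by MYC were the list with the widest spread. Of 9 tested, 2 rose and 3 fell, 55.6% beside 16% of all tested genes (8.29% rose and 7.69% fell), with a median of -0.18, or -0.03 without wild type replicate 1. Cdkn1a, which encodes the cell cycle inhibitor p21 and is also a p53 target, went from 196.6, 184.8 and 169.5 CPM to 106.6, 71.2 and 85.2 CPM (log2 fold change -1.07 ± 0.14, SE; adjusted p = 0.00437). It did not pass with numbers 1 and 2 only, where the log2 fold change was -1.10 (adjusted p = 0.117). Ndrg1, a stress-induced gene, fell by 0.39, from 74.4 ± 4.08 to 56.9 ± 1.74 CPM. Cdkn2c, the gene of p18 and named after its values were seen, fell by 0.39, from 34.2 ± 2.16 to 26.2 ± 1.25 CPM. Cdkn1c, the imprinted gene of the inhibitor p57, rose from 1.68, 1.07 and 1.26 CPM to 3.27, 2.99 and 3.45 CPM (log2 fold change 1.27 ± 0.19, SE; adjusted p = 0.00256). Ndrg2, a paralog of Ndrg1, rose from 7.69 ± 1.76 to 14.2 ± 0.764 CPM. The inhibitors of the cell cycle moved in opposite directions, and Cdkn2b had too few counts for a test.

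Targets of MLX heterodimers gave no call. None of Txnip, Arrdc4 and Pklr passed in edgeR, DESeq2 or limma-voom, and none had an unadjusted p under 0.05. Txnip, a glucose-induced inhibitor of thioredoxin, was at 138.4, 140.7 and 123.3 CPM in wild type and 133.3, 122.5 and 110.7 CPM in ASXL1-MT-KI (log2 fold change -0.14, adjusted p = 0.273). The groups overlapped. With the block Txnip passed (adjusted p = 0.0243), 1 of the 3 genes rose and 1 fell, 66.7% beside 30.5% of all genes.

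**Figure D5:**
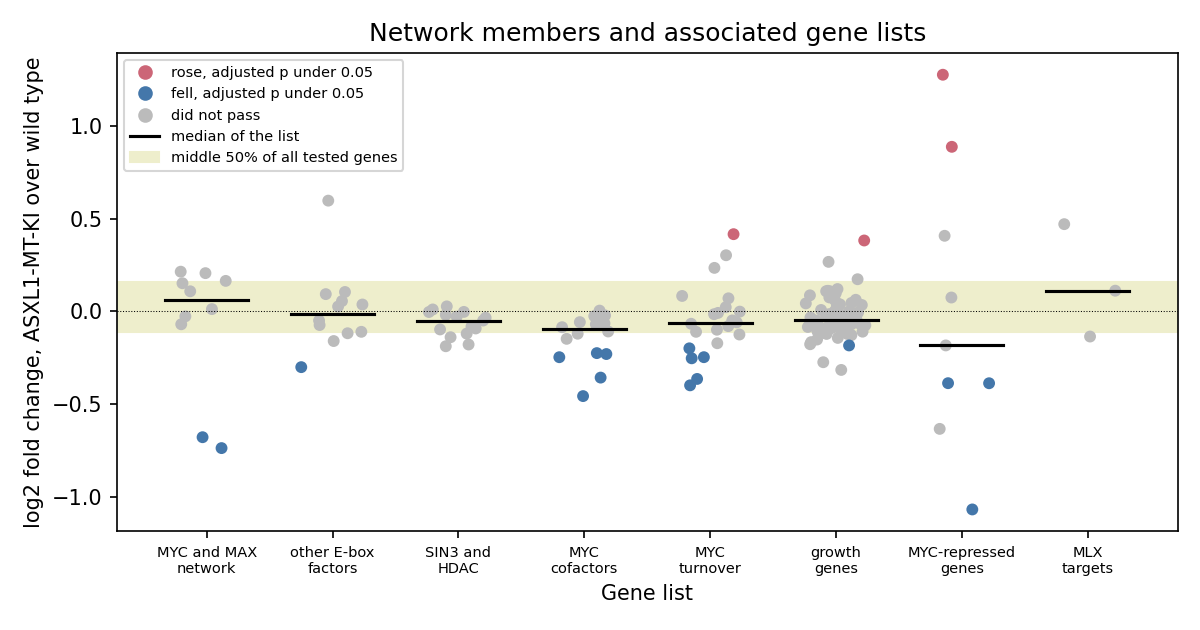
Log2 fold change (ASXL1-MT-KI over wild type) of each tested gene of the network and of 7 associated lists, with the median of each list as a bar and the middle 50% of all tested genes as a band. The network has 2 points that fell, Mnt and Mxd1, the growth genes cluster near 0, and the MYC-repressed genes spread from -1.07 to 1.27.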

How the data were processed

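Total RNA of sorted LK cells was sequenced. Per the labels' protocols, 200 ng of RNA entered the NEBNext Ultra kit, with paired reads of 124 bp. This kit does not mark strand. Alignment tool and build were HISAT2 2.0.4 and mm10, per the submitters' processing notes. Counting tool and annotation: not given in the sources used here. Raw counts were deposited by the authors per gene symbol, not normalized, and the table's columns were matched to samples by genotype and number.

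Genotypes were compared in R 4.3.3 by edgeR 4.0.16, using filterByExpr (minimum count 10), TMM scaling and a robust quasi-likelihood F test on genotype alone. Adjusted p-values (Benjamini-Hochberg, 13548 genes) had a threshold of 0.05. CPM used the TMM factors. Standard errors are the log2 fold change divided by the square root of F. The p-values set the difference between genotypes against the spread between these libraries within a genotype. The gene family, chosen by symbol, and the lists and tests were proposed with earlier results of these data known. Named genes were all members, up to 4 of each list by p among those past the threshold, or the lowest p where none passed, and the 3 genes most like Myc. A gene that this rule names is not reported here.

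Replicate numbers come from the titles. Across genes, log2 deviations of the libraries sharing a number had correlations of 0.307, 0.217 and 0.472, with genes not being independent replicates. Between different numbers they ran from -0.380 to 0.179, the highest for wild type 2 with ASXL1-MT-KI 1. All 3 same-number values exceed 0.1, so a fit with the number as a block was set beside the main fit. The main fit, on genotype alone, leaves this pairing out. The blocked value is given beside a result whose call it alters or whose count it shifts more than 1.5 times. Within each group, all pairs of libraries differed by more than sampling noise (chi-square per degree of freedom 8.25 to 27.3).

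Alternatives were the block, DESeq2 size factors, total counts, DESeq2 1.42.0, limma-voom (limma 3.58.1), no filter, a minimum CPM of 1 in 3 libraries, each library left out, and numbers 1 and 2 only. The use of the longest transcript as the gene length was added after seeing the data. The pipeline was tested on simulated counts, which were drawn without an effect shared by libraries of the same number. Lengths and positions are from GENCODE M21 and promoter windows from RefSeq. Figures were drawn with matplotlib 3.10.9.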

Additional observations from a re-analysis of the deposited data

How the results depend on the processing

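Of 140 results for the 10 members under 14 alternatives each, 137 kept their direction where called and their side of the threshold. The other 3 were Myc without ASXL1-MT-KI replicate 1 and Mlx with the replicate block and with total counts, which made the rises 1 in place of 0. The falls of Mnt and Mxd1 numbered 2 in every alternative. Over all genes the replicate block gave 2256 rises and 1876 falls in place of 1123 and 1042, and leaving out 1 library gave 534 to 1216 rises and 587 to 1041 falls. The cause was not tested.

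With the replicate block, falls numbered 3 among the other E-box factors and 3 in the SIN3 list; among turnover genes 3 rose and 8 fell, among the growth genes 3 and 7, and among MLX targets 1 and 1. With total counts, which shifted the median of all genes to 0.05, falls of the other E-box factors numbered 0, turnover rises 2, growth gene rises 3 and growth gene falls 0. DESeq2 gave 2 turnover rises and 4 growth gene falls, and DESeq2 size factors 2 growth gene falls. With number 3 of both groups left out, 3 fell in the SIN3 list, 2 growth genes rose and 8 fell, and 1 MLX target rose. Leaving out 1 library gave 0 to 1 falls of other E-box factors, 0 to 3 in the SIN3 list and 3 to 4 of MYC cofactors, 0 to 2 turnover rises with 4 to 5 falls, and 0 to 1 rises and 0 to 7 falls of growth genes. A member with as few counts as Mycl has a wide interval, and depth limits what can be said of it.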
